A study of Mus musculus with 16 samples.

Results

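Autosomal genes that stood at different levels in 3xTg-AD than in WT mice, in air as well as after alcohol vapor, were examined. The data were single-nucleus RNA-Seq of the medial prefrontal cortex. The 10 genes, of 19999 genes in the count table, were Ccl27a, Rbmxl1, Galnt1, Sap130, Sbspon, Gm7324, Gm17167, Cd59a, 4933409K07Rik and Apobec3. They were selected on the measured genotype difference itself, with no stated numerical threshold, so that difference is described here without a test. The 16 libraries came from 16 male mice, 22 weeks old, with 4 mice in each of 4 groups. WT control and WT alcohol mice were B6;129 animals. The modified alleles of 3xTg-AD and 3xTg-AD alcohol mice include human APP with the Swedish mutation and human tau with the P301L mutation, both driven by Thy1 regulatory sequence, and the mice were bought as a line kept on a B6;129 background. Alcohol mice received ethanol with pyrazole, an inhibitor of alcohol dehydrogenase, before intermittent alcohol vapor. The other mice received pyrazole in saline and breathed air, so pyrazole was common to all 4 groups. Tissue was taken days after the last vapor exposure and after water maze testing. The word alcohol below therefore stands for a history of exposure, not for intoxication at the time of sampling. The labels give no colony for the WT mice, and the authors call them littermate controls in their discussion. Because the modified alleles and any difference of background change together between the genotypes, their contributions to any difference below cannot be told apart. No DNA genotype was analysed here, so the working description of these genes as markers of strain background is not established by these data.

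Lines of mice that are bred apart come to carry different alleles at many autosomal sites. Such alleles can change a promoter, an exon, a 3′ end or the number of copies of a gene, and any of these can change how many reads are counted for it. Genes with near-identical copies are a special case, because a small number of base differences decides to which copy a read is assigned. Those of the 10 genes with a known function have varied roles. Galnt1 starts mucin-type O-glycosylation by attaching N-acetylgalactosamine to serine and threonine. Sap130 is a subunit of the Sin3 histone deacetylase corepressor complex. Sbspon encodes a secreted protein with somatomedin B and thrombospondin domains. Ccl27a is a chemokine best known from skin, where it attracts T cells through the receptor Ccr10. Cd59a is a membrane-anchored inhibitor of the complement membrane attack complex, and Apobec3 is a cytidine deaminase that restricts retroviruses. Rbmxl1 is a retrotransposed relative of the X-linked RNA-binding protein gene Rbmx, and Gm7324 is a near-identical copy of Rbmxl1. Gm17167 and 4933409K07Rik are transcripts without a known protein function.

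The first sequences to look at are those of Rbmxl1 and Gm7324, because long stretches of their transcripts differ at only a few bases. The Rbmxl1 transcript has 1695 bases in 2 exons. The Gm7324 transcript has 1647 bases in 1 exon and ends in a run of 35 A. Over 1612 aligned bases, 1606 (99.6%) were identical and 6 differed, 4 of them in the coding sequence and 2 in the 3′ UTR. The alignment also held 46 gap bases, and the remaining ends of the transcripts did not align, so these 6 are not the only positions at which a read could tell the genes apart. With Rbmxl1 first and positions counted from 1 at the 5′ end of its transcript, the coding differences were A800G, G898A, C1125T and C1169T, and the UTR differences were G1464A and A1572G. The last of these lies 123 bases from the 3′ end of the Rbmxl1 transcript, the end from which this 3′ chemistry primes. The coding stretches around the 4 coding differences, read from GRCm38 (also called mm10), are printed with the differing bases in capitals, at chr8:78506026-78506204 and chr8:78505755-78505879 on the minus strand for Rbmxl1 and at chr14:43714410-43714588 and chr14:43714735-43714859 on the plus strand for Gm7324.
Rbmxl1 first stretch: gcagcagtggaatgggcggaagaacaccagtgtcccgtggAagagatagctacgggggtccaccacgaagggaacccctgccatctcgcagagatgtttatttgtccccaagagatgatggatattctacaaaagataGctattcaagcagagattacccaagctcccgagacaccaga
Gm7324 first stretch: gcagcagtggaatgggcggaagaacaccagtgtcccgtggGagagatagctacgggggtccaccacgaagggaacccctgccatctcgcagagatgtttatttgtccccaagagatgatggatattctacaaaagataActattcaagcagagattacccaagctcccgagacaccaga
Rbmxl1 second stretch: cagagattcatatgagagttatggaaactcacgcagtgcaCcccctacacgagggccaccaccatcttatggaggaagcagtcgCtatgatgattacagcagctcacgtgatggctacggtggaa
Gm7324 second stretch: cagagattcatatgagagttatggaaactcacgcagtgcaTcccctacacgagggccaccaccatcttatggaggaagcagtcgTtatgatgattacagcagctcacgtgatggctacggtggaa

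Shared sequence was not limited to this pair. Of all 60-base stretches in the annotated transcripts of a gene, 76.0% of those of Rbmxl1 and 63.8% of those of Gm7324 also occurred in another gene. The share was 60.8% for Gm17167, with 22 other genes, and 40.04% for Ccl27a, with 5 other genes, of which Gm20878 and Gm13306 are in the count table. It was 5.85% for Apobec3, 2.48% for Cd59a, and 0 for Galnt1, Sap130 and Sbspon. The levels of Rbmxl1, Gm7324, Gm17167 and Ccl27a are therefore uncertain as to which copy they come from. No annotated transcript was available for 4933409K07Rik, so its share is unknown and its level may be uncertain in the same way.

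Positions are those of GENCODE M21 on GRCm38. Sbspon lies at chr1:15853862-15892722 on the minus strand and Cd59a at chr2:104095801-104115354 on the plus strand. Ccl27a at chr4:41769467-41774247 on the minus strand and Gm17167 at chr4:42206998-42235313 on the plus strand share a stretch of chromosome 4. Rbmxl1 lies at chr8:78505269-78508898 on the minus strand, Gm7324 at chr14:43697828-43715378 on the plus strand and Apobec3 at chr15:79891659-79915906 on the plus strand. Galnt1 at chr18:24205344-24286818 and Sap130 at chr18:31634371-31723061, both on the plus strand, share chromosome 18 and are 7.43 Mb apart. 4933409K07Rik had no entry in that annotation; RefSeq lists it as a transcribed pseudogene on chromosome 4. All the others are annotated as protein coding apart from Gm17167, a processed transcript, and RefSeq lists Gm7324 as a pseudogene. Ccl27a overlaps Il11ra1 by 8 bases and Apobec3 overlaps Cbx7 by 100 bases, each on the opposite strand.

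Each mouse gave 4955 to 9096 nuclei and 9622031 to 17544364 UMIs. The levels below are CPM, the UMIs of a gene divided by all UMIs of the mouse and multiplied to a common total. Levels of the selected genes in a whole mouse are scaled by the trimmed mean of M-values (TMM). Levels within a cell class are divided by the UMIs of that class in place of the mouse and are not scaled by TMM. A level of a mouse sums all its nuclei, so fewer cells that express a gene and less RNA per cell cannot be told apart in it. Mice are named by their label numbers, and values are given in the order 26, 27, 28 and 36 for WT control, 6, 7, 17 and 18 for WT alcohol, 12, 13, 14 and 21 for 3xTg-AD, and 4, 31, 33 and 34 for 3xTg-AD alcohol. The ribosomal RNA-like transcript Gm42418 reached at least 17914 CPM, without TMM scaling, in mice 26, 27 and 12. WT control mouse 27 also had 12.01% GABAergic nuclei. No gene had counts in 1 to 4 nuclei of a mouse, so a listed 0 can hide up to 4 nuclei. Mouse Thy1, App and Mapt did not pass the test between genotypes, with log2 fold changes of 0.25 for Thy1, -0.19 for App and 0.05 for Mapt and adjusted p (edgeR) of 0.268, 0.276 and 0.747. The human transgenes were not among the genes of the table, so the genotype label could not be checked on them.

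Without alcohol, all 10 genes separated the 4 3xTg-AD mice from the 4 WT control mice with no overlap, as did 4.04% of all 16767 genes that passed the count filter. With alcohol, 9 of the 10 did so, against 9.97% of all genes, and 9 of the 10 separated all 8 mice of each genotype, against 0.662%. These counts restate how the genes were selected. Ccl27a, Rbmxl1, Galnt1, Sbspon, Gm17167 and 4933409K07Rik were lower in 3xTg-AD mice, and Sap130, Gm7324, Cd59a and Apobec3 were higher. By the size of the mean log2 genotype difference, the 9 genes with a fitted value ranked from 22 (Gm17167) to 461 (Sap130) among all genes.

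**Figure D1:**
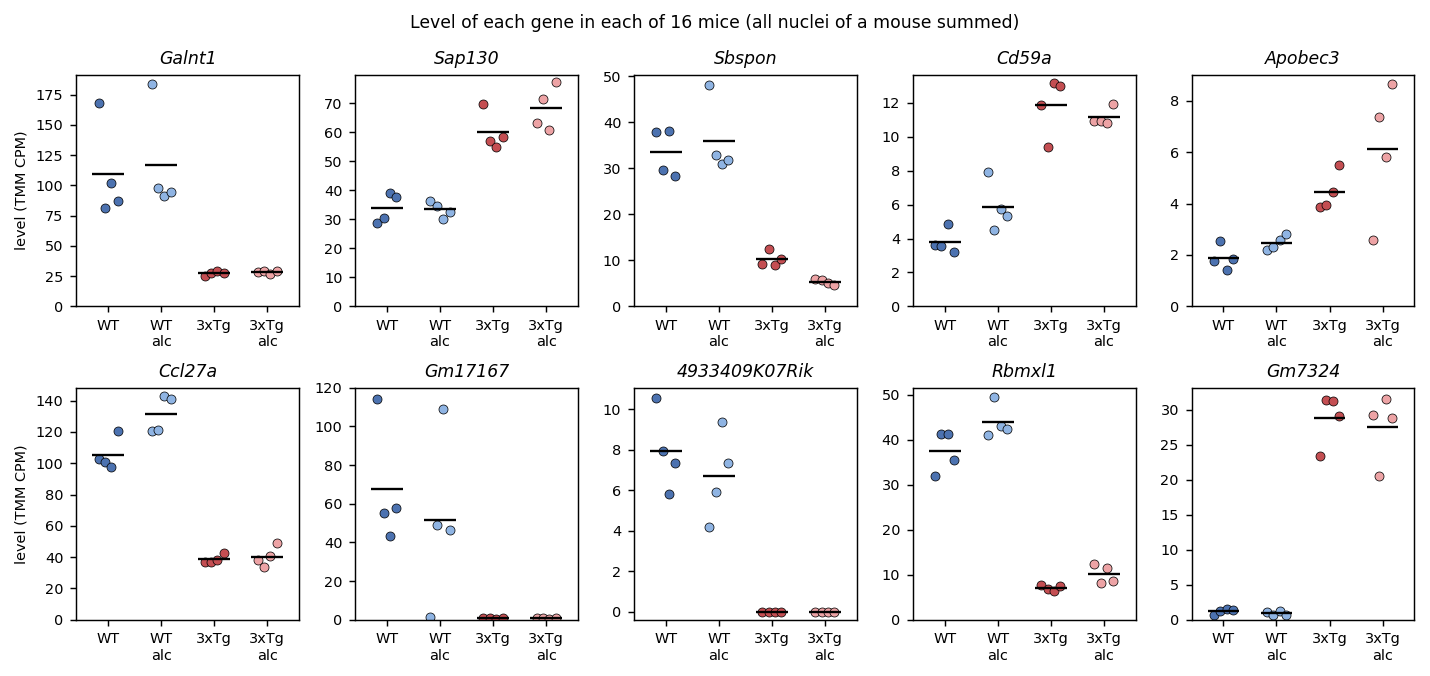
Level of each of the 10 genes (TMM CPM, vertical axis) in each of the 16 mice, with 1 point per mouse, the 4 groups side by side and the group mean as a line. The genotypes overlap in the panel of Apobec3, where 3xTg-AD alcohol mouse 4 (2.58) lies among the WT alcohol mice, and nearly meet in that of Gm17167, where WT alcohol mouse 6 (1.33) lies close to the 3xTg-AD mice.

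On chromosome 18, the 2 genes differed in opposite directions. Galnt1 was at 168, 81.0, 102 and 87.2 CPM in WT control and at 184, 98.1, 91.1 and 94.2 CPM in WT alcohol mice. In 3xTg-AD mice it was at 25.03, 27.5, 28.9 and 27.7 CPM, and in 3xTg-AD alcohol mice at 28.6, 29.5, 27.1 and 28.9 CPM. The lowest WT mouse stood far above the highest 3xTg-AD mouse, and WT mice 26 and 6 stood apart above the other WT mice. The log2 fold change of 3xTg-AD over WT was -2.01 (SE 0.23) without and -2.03 (SE 0.23) with alcohol. Sap130 was at 28.6, 30.4, 39.2 and 37.9 CPM in WT control and 36.4, 34.8, 30.1 and 32.5 CPM in WT alcohol mice. It was at 69.7, 57.1, 55.1 and 58.4 CPM in 3xTg-AD and 63.4, 71.6, 60.8 and 77.5 CPM in 3xTg-AD alcohol mice. All 8 3xTg-AD mice thus lay above all 8 WT mice, with log2 fold changes of 0.82 (SE 0.12) and 1.03 (SE 0.12). Without the 3 mice rich in Gm42418 the first of these was 0.56.

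The extracellular and membrane proteins also differed in direction. Sbspon was at 37.8, 29.5, 38.1 and 28.3 CPM in WT control and 48.1, 32.8, 30.9 and 31.7 CPM in WT alcohol mice. It was at 9.29, 12.4, 8.90 and 10.3 CPM in 3xTg-AD and 5.99, 5.76, 5.10 and 4.54 CPM in 3xTg-AD alcohol mice. The WT groups overlapped each other, both 3xTg-AD groups lay below them without overlapping each other, and the log2 genotype difference was -1.71 (SE 0.16) without and -2.74 (SE 0.17) with alcohol. Ccl27a was at 103, 101, 97.4 and 121 CPM in WT control and 121, 121, 143 and 141 CPM in WT alcohol mice. It was at 36.7, 37.1, 38.4 and 42.9 CPM in 3xTg-AD and 38.4, 33.9, 40.4 and 48.8 CPM in 3xTg-AD alcohol mice. The chemokine was thus lower in every 3xTg-AD mouse, with log2 fold changes of -1.44 (SE 0.11) and -1.71 (SE 0.11). Adding the counts of Gm20878 and Gm13306, its only copies in the count table, gave -1.43 and -1.69. Reads of its other copies could not be added.

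Cd59a, the complement inhibitor, was higher in 3xTg-AD mice. It was at 3.65, 3.54, 4.86 and 3.20 CPM in WT control and 7.92, 4.50, 5.76 and 5.35 CPM in WT alcohol mice. In 3xTg-AD mice it was at 11.9, 9.38, 13.2 and 12.98 CPM, and in 3xTg-AD alcohol mice at 10.96, 10.9, 10.8 and 11.96 CPM. The highest WT mouse, number 6, stayed below the lowest 3xTg-AD mouse, and the log2 fold changes were 1.64 (SE 0.18) and 0.91 (SE 0.17). Apobec3 was the only gene of the 10 whose genotypes overlapped after alcohol. It was at 1.78, 2.54, 1.41 and 1.84 CPM in WT control and 2.20, 2.30, 2.59 and 2.83 CPM in WT alcohol mice. It was at 3.87, 3.94, 4.45 and 5.49 CPM in 3xTg-AD and 2.58, 7.37, 5.83 and 8.66 CPM in 3xTg-AD alcohol mice. Mouse 4 at 2.58 CPM lay within the WT alcohol range, the other mice lay above it, and the log2 fold changes were 1.24 (SE 0.30) and 1.28 (SE 0.28).

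The chromosome 4 transcripts without a known protein function were at or near 0 in 3xTg-AD mice. Gm17167 was at 114, 55.3, 43.1 and 57.7 CPM in WT control and 1.33, 49.0, 109 and 46.6 CPM in WT alcohol mice. It was at 0.86, 0.67, 0.41 and 1.11 CPM in 3xTg-AD and 0.90, 1.07, 0.61 and 0.91 CPM in 3xTg-AD alcohol mice. WT alcohol mouse 6 was therefore close to the 3xTg-AD mice, while mice 26 and 17 stood above the other WT mice, which held 43.1 to 57.7 CPM. The log2 fold changes were -6.45 (SE 1.005) without and -5.88 (SE 0.95) with alcohol, and the latter was -5.19 without mouse 17 and -6.28 without mouse 6. Adding the counts of Gm3892 and Gm12394, copies that are in the count table, gave -5.68 (SE 0.86) and -4.99 (SE 0.81). Of the 22 genes that share sequence with Gm17167, only 6 are in that table, so reads of the absent ones could not be added. The copy Gm3892 was also lowest among WT mice in mouse 6, at 0.40 CPM against 0.89 to 3.16 CPM in the others, and was listed at 0 in all 3xTg-AD mice. 4933409K07Rik was at 10.54, 7.97, 5.83 and 7.36 CPM in WT control and 4.19, 5.89, 9.39 and 7.33 CPM in WT alcohol mice. It was listed at 0 in all 8 3xTg-AD mice, so no fold change is given. WT mouse 6 again held the lowest level of the 8 WT mice, here without standing apart.

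Rbmxl1 and Gm7324 gave mirror images of each other. Rbmxl1 was at 32.0, 41.2, 41.2 and 35.4 CPM in WT control and 41.1, 49.4, 43.0 and 42.4 CPM in WT alcohol mice. It was at 7.66, 6.79, 6.42 and 7.56 CPM in 3xTg-AD and 12.3, 8.14, 11.5 and 8.66 CPM in 3xTg-AD alcohol mice. The log2 fold changes were -2.39 (SE 0.14) and -2.11 (SE 0.13), with every 3xTg-AD mouse below every WT mouse. Gm7324 was at 0.73, 1.22, 1.59 and 1.43 CPM in WT control and 1.07, 0.60, 1.21 and 0.72 CPM in WT alcohol mice. It was at 23.4, 31.5, 31.2 and 29.1 CPM in 3xTg-AD and 29.3, 20.5, 31.6 and 28.9 CPM in 3xTg-AD alcohol mice, with log2 fold changes of 4.52 (SE 0.22) and 4.88 (SE 0.22). Here every 3xTg-AD mouse was above every WT mouse.

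The sum of both copies did not separate the genotypes. It was 32.8, 42.4, 42.8 and 36.9 CPM in WT control, 42.1, 49.96, 44.2 and 43.2 CPM in WT alcohol, 31.1, 38.3, 37.6 and 36.7 CPM in 3xTg-AD, and 41.7, 28.6, 43.1 and 37.5 CPM in 3xTg-AD alcohol mice. These ranges overlapped in both comparisons. The log2 fold change of the sum was -0.11 (SE 0.13) without and -0.25 (SE 0.12) with alcohol. The opposite differences of the 2 genes thus nearly cancelled in number of UMIs. Whether the reads came from 1 locus with other bases at the differing positions, or from both loci at changed levels, was not tested, since no reads were analysed here.

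**Figure D2:**
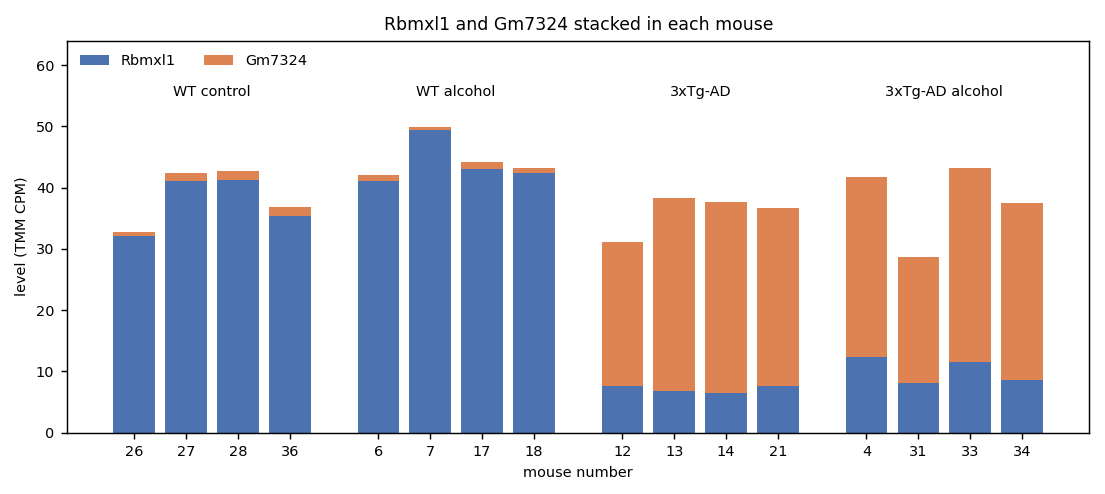
Stacked bars of the levels of Rbmxl1 and Gm7324 (TMM CPM, vertical axis from 0) for each mouse (horizontal axis, 4 groups of 4 mice). Rbmxl1 makes up nearly the whole bar in WT mice and the smaller part in 3xTg-AD mice, while the height of the bars, 28.6 to 49.96, overlaps between genotypes.

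The difference of the 2 genotype differences, with and without alcohol, varied among the selected genes. Gm17167 and Gm7324, near 0 in a genotype, are included in what follows. Its median size over the 9 genes with a value was 0.29 on the log2 scale with a median SE of 0.25, against a median size of 0.17 over all genes. Sbspon had the largest value among these genes, at -1.03 (SE 0.23), and Cd59a followed at -0.72 (SE 0.25), while Galnt1 was at -0.03 (SE 0.31). Selecting genes that differ both with and without alcohol constrains this quantity, so it was not tested for them. Over all genes edgeR called 0 interactions at an adjusted p of at most 0.05, with 583 genes at an unadjusted p below 0.05.

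The alcohol difference averaged over both genotypes was not used in the selection and was tested. Within 1 genotype the alcohol difference also holds part of the difference of the genotype differences, which the selection constrains. The calls within a genotype, given below, are therefore not independent of the selection. Averaged over both genotypes, edgeR called 553 of 16767 genes (3.3%), and 1 of the 9 selected genes with a value, Rbmxl1. Gm17167 in 3xTg-AD and Gm7324 in WT mice were too low for this average to be read. Of the other 7, 6 had positive and 1 a negative value, with a median of 0.19 and one of 0.01 over all genes. Rbmxl1 was higher after alcohol by 0.38 on the log2 scale (SE 0.095, adjusted p = 0.0406), with means of 37.4 ± 4.52 CPM (SD, n = 4) in WT control and 44.0 ± 3.68 in WT alcohol mice. The means were 7.11 ± 0.60 CPM in 3xTg-AD and 10.2 ± 2.08 in 3xTg-AD alcohol mice, and the ranges overlapped in WT but not in 3xTg-AD mice. When the counts of Rbmxl1 and Gm7324 were summed, the difference was 0.14 (SE 0.088) and was no longer called (adjusted p = 0.372). The call was also lost in 11 of the 16 fits without 1 mouse, where the log2 fold change ranged from 0.32 to 0.42.

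Within 3xTg-AD mice, 81 of 16767 genes (0.483%) were called between alcohol and air, among them 1 of the 9 selected genes with a value, Sbspon. Sbspon fell by 0.93 on the log2 scale (SE 0.17, adjusted p = 0.0255, edgeR), from 10.2 ± 1.57 CPM to 5.35 ± 0.66 CPM (SD, n = 4), with all 4 alcohol mice below all 4 air mice. The call was lost without 3xTg-AD mouse 13 or 21 or 3xTg-AD alcohol mouse 31, 33 or 34, while the log2 fold change stayed between -0.82 and -0.99. In WT mice the Sbspon difference was 0.10 (SE 0.15, adjusted p = 0.784), at 33.4 ± 5.24 and 35.9 ± 8.22 CPM. Averaged over both genotypes it was -0.41 by edgeR (adjusted p = 0.0570) and -0.42 by DESeq2, which called it (adjusted p = 0.0246). Rbmxl1, at 0.52 (SE 0.14) in 3xTg-AD mice, was not called there by edgeR (adjusted p = 0.109) but was by DESeq2 (0.53, adjusted p = 0.0451), which also called Sbspon. Of the 10 genes, 2 (Rbmxl1 and Sbspon) had non-overlapping groups in this contrast, against 7.04% of all genes. Total UMIs per mouse did not overlap between these groups either, at 11665883 to 12395978 in air and 12422354 to 16977812 in alcohol mice. Gm42418 was at 3477 to 17914 CPM in air and 2059 to 3232 CPM in alcohol mice, without TMM scaling. The part of these library differences was not tested.

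Within WT mice, 3 of 16767 genes (0.0179%) were called and none of the 10 selected genes by edgeR. The lowest adjusted p among the 10 were those of Cd59a, at 0.64 (SE 0.18, adjusted p = 0.255), and Ccl27a, at 0.32 (SE 0.11, adjusted p = 0.265). Ccl27a alone had WT groups without overlap, 1 of 10 genes against 11.2% of all genes. Galnt1 and Sap130 had alcohol differences within 0.19 on the log2 scale in both genotypes, with SE of 0.12 to 0.23. Apobec3 was at 0.41 (SE 0.31) in WT and 0.45 (SE 0.27) in 3xTg-AD mice, with neither called. Microglia, the class with the highest Apobec3 level, made up 2.18%, 1.41%, 2.33% and 1.98% of the nuclei of 3xTg-AD mice. With alcohol the shares were 2.29%, 3.99%, 3.43% and 5.13%, in the same order over these 4 mice as the level of Apobec3. In each of the other groups, WT and 3xTg-AD, the orders of share and level did not match. Within microglia the alcohol difference of Apobec3 was 0.08 (SE 0.29) in 3xTg-AD mice, and the part of the microglial share was not tested.

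**Figure D3:**
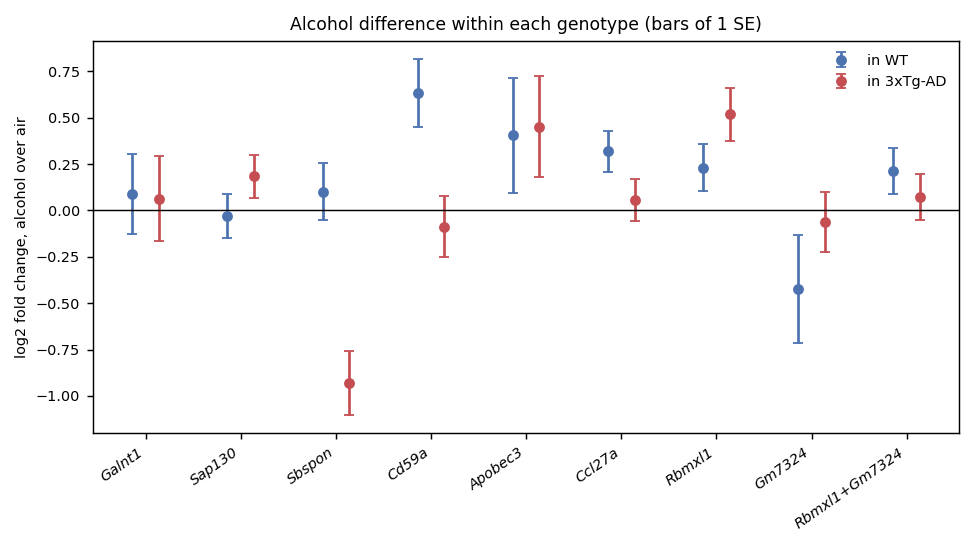
Log2 fold change of alcohol over air (vertical axis) within WT and within 3xTg-AD mice for 8 of the genes and for the sum of Rbmxl1 and Gm7324, with bars of 1 SE on each side. Sbspon in 3xTg-AD mice lies at -0.93, and the value of Rbmxl1 in 3xTg-AD mice, 0.52, comes down to 0.07 in the sum. Gm17167 and 4933409K07Rik are left out because they are at or near 0 in 3xTg-AD mice.

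Levels were next compared between cell classes. A nucleus was placed in a class, such as glutamatergic-like or microglia-like, from its UMIs in lists of marker genes, and the classes are called by their short names here. Of 114512 nuclei, 55501 were placed and 59011 (51.5%) were not. Gad1 was at 461 CPM in the GABAergic class against 46.0 in the glutamatergic class, and Flt1 at 2084 CPM in the endothelial class. The pericyte marker Rgs5 went against the names, at 827 CPM in the endothelial class and 163 CPM in the class set by mural and fibroblast markers, where the fibroblast marker Dcn was at 182 CPM. That last class is therefore not taken as a cell type and is called the mural/fibroblast marker class. Free or mixed RNA was present, since the neuronal gene Slc17a7 was at 388 to 555 CPM in the 6 non-neuronal classes against 1037 CPM in the glutamatergic class. Levels in a non-neuronal class therefore include a neuronal share, and its part in the results below was not tested.

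Within each mouse, the summed neuronal classes were compared with the summed non-neuronal classes by a two-sided exact sign-flip permutation test of log2(CPM + 1), adjusted over 20 tests. Sbspon was higher in neurons in 16 of 16 mice, at 22.5 against 7.77 CPM on average, with a mean log2 difference of 1.34 ± 0.43 (SD, n = 16, adjusted p = 0.000203, exact). Apobec3 was lower in neurons in 16 of 16 mice, at 1.10 against 20.5 CPM, with a mean log2 difference of -3.22 ± 0.57 (n = 16, adjusted p = 0.000203, exact). The unadjusted p of both, 3.05e-05, is the smallest that this test can give. Rbmxl1 was lower in neurons in 14 of 16 mice (-0.30 on the log2 scale, exact adjusted p = 0.0094). Sap130 was higher in neurons in 12 of 16 mice (0.14, exact adjusted p = 0.0358). By a stricter rule for the classes both calls were lost, with Rbmxl1 at -0.06 and Sap130 at -0.16. The Sap130 call was also lost in 9 of the 16 tests without 1 mouse (mice 26, 7, 18, 12, 14, 21, 4, 31 or 34), with values from 0.11 to 0.17.

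Gm17167 and Gm7324 averaged under 2 CPM in 1 genotype, so they were tested in the mice of the other genotype, a choice made after seeing the data. Gm17167 was higher in neurons in 8 of 8 WT mice, at 55.8 against 26.4 CPM, by 1.13 ± 0.56 on the log2 scale (SD, n = 8, exact adjusted p = 0.0223). In 3xTg-AD mice its difference was 0.19 ± 0.67 at levels under 1 CPM, and over all 16 mice it was 0.66 (exact adjusted p = 0.0135), a call that the stricter class rule ended. Gm7324 was lower in neurons in 8 of 8 3xTg-AD mice, at 28.2 against 36.5 CPM, by -0.36 ± 0.15 (n = 8, exact adjusted p = 0.0223), and was not called over all 16 mice (-0.31, exact adjusted p = 0.0556).

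Between the neuronal classes, Ccl27a was higher in glutamatergic than in GABAergic nuclei in 16 of 16 mice, at 81.9 against 53.2 CPM, with a mean log2 difference of 0.87 ± 0.67 (n = 16, exact adjusted p = 0.000203). That difference was 0.45 ± 0.16 in WT and 1.29 ± 0.73 in 3xTg-AD mice (SD, 8 mice each). Gm17167, tested in WT mice, was higher in glutamatergic nuclei in 7 of 8, at 62.3 against 23.7 CPM, by 1.199 ± 0.76 (n = 8, exact adjusted p = 0.0322). Over all 16 mice it was 0.82 (exact adjusted p = 0.0094), of which the 3xTg-AD mice, with 23 and 2 UMIs in all in these classes, gave 0.44. 4933409K07Rik was tested in the 8 WT mice only and was higher in glutamatergic nuclei in all 8, by 1.11 ± 0.74 (exact adjusted p = 0.0223). Sbspon was higher in glutamatergic nuclei by 0.23 ± 0.33 (exact adjusted p = 0.0330, 11 of 16 mice), but by the stricter class rule the value was -0.09 and not called. That call was also lost with a pseudocount of 10 CPM and in 7 of the 16 tests without 1 mouse (mice 28, 6, 7, 12, 14, 4 or 34), with values from 0.20 to 0.26. The remaining 6 genes were not called in this comparison. Among them Galnt1 joined opposite directions, at 0.37 ± 0.32 in WT mice (higher in glutamatergic nuclei in 7 of 8) and -0.78 ± 0.21 in 3xTg-AD mice (0 of 8).

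Galnt1 was the gene whose class pattern differed most visibly between genotypes, which is described without a test because genotype was part of the selection. In glutamatergic nuclei it was at 82.7, 107 and 210 CPM (lowest, median and highest of 8 WT mice) and at 18.8, 22.3 and 24.4 CPM in the 8 3xTg-AD mice. In astrocytes it was at 54.6, 61.5 and 91.4 CPM in WT and 45.4, 56.9 and 75.2 CPM in 3xTg-AD mice. The genotypes were thus far apart in the neurons and overlapped in the astrocytes. The ratio of the glutamatergic to the astrocyte level was 1.78 ± 0.56 in WT mice (SD, n = 8, 1.07 to 2.79) and 0.38 ± 0.08 in 3xTg-AD mice (0.25 to 0.48). Neurons were above non-neuronal nuclei in 8 of 8 WT mice, by 0.57 on the log2 scale, and below them in 8 of 8 3xTg-AD mice, by -1.09, so the pooled difference of -0.26 (exact adjusted p = 0.310) joined opposite directions.

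In the other classes, pooled over the mice of a genotype, Galnt1 was at 87.5 CPM in WT and 38.6 CPM in 3xTg-AD GABAergic nuclei. It was at 121 and 42.3 CPM in oligodendrocyte precursors (OPCs), and 56.7 and 38.4 CPM in oligodendrocytes. Microglia had 83.2 and 60.5 CPM, and endothelial nuclei 62.1 and 53.9 CPM. The mice of both genotypes did not overlap in GABAergic nuclei and OPCs and overlapped in oligodendrocytes, microglia, endothelial nuclei and the mural/fibroblast marker class. The Galnt1 content of free RNA was not measured, and its part in the levels of the glial classes was not tested.

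Sap130 was higher in 3xTg-AD mice in each of the 8 classes, by 0.60 (12 and 16 UMIs) to 1.47 (15 and 36 UMIs) on the log2 scale of pooled levels. The mice of both genotypes did not overlap in 2 of the 8 classes, glutamatergic nuclei and astrocytes. In glutamatergic nuclei it was at 31.9 and 60.1 CPM in WT and 3xTg-AD mice, in astrocytes at 26.6 and 50.4 CPM. Ccl27a was lower in each of the 8 classes, by -1.08 in the mural/fibroblast marker class to -2.40 in GABAergic nuclei, where it was at 91.0 and 17.3 CPM, and its genotypes did not overlap in 7 of them. Sbspon was at 38.4 and 8.14 CPM in glutamatergic, 32.6 and 6.22 CPM in GABAergic and 9.37 and 1.5003 CPM in astrocyte nuclei. These genes thus kept 1 direction of difference in all classes listed. Gm17167 was at 60.6 and 0.74 CPM in glutamatergic nuclei and was listed at 0 in OPCs and microglia of 3xTg-AD mice, where WT mice had 49.4 and 35.1 CPM. The sum of Rbmxl1 and Gm7324 overlapped between genotypes in all 8 classes, with log2 differences of -0.36 to 0.20.

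Cd59a had its highest level in endothelial nuclei and Apobec3 in microglia. Cd59a was at 82.8 CPM in WT and 98.5 CPM in 3xTg-AD endothelial nuclei, from 40 and 42 UMIs. The mice of both genotypes overlapped there. In glutamatergic nuclei it was at 4.75 and 11.9 CPM, in GABAergic nuclei at 4.75 and 15.1 CPM, and in both classes no 3xTg-AD mouse overlapped a WT mouse. Oligodendrocytes had 3.57 and 21.4 CPM, from 9 and 49 UMIs. Astrocytes, OPCs and microglia of 3xTg-AD mice were below both neuronal classes, at 5.81, 5.36 and 6.79 CPM (31, 9 and 12 UMIs). Neurons against non-neuronal nuclei were not called for Cd59a over 16 mice (-0.35 on the log2 scale, sign-flip exact adjusted p = 0.0556). That value joined unlike genotypes, at -0.68 ± 0.70 in WT mice (SD, higher in neurons in 1 of 8) and -0.03 ± 0.32 in 3xTg-AD mice (3 of 8). Apobec3 was highest in microglia, at 20.7, 41.6 and 89.7 CPM (lowest, median and highest) in WT and 55.3, 130 and 175 CPM in 3xTg-AD mice, with means of 49.8 ± 25.2 and 116 ± 39.0 (SD, n = 8), and the genotypes overlapped. Endothelial nuclei had 12.4 and 56.3 CPM, from 6 and 24 UMIs, and astrocytes 8.63 and 17.1 CPM. In glutamatergic nuclei Apobec3 was at 0.66 and 1.47 CPM, from 22 and 46 UMIs.

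**Figure D4:**
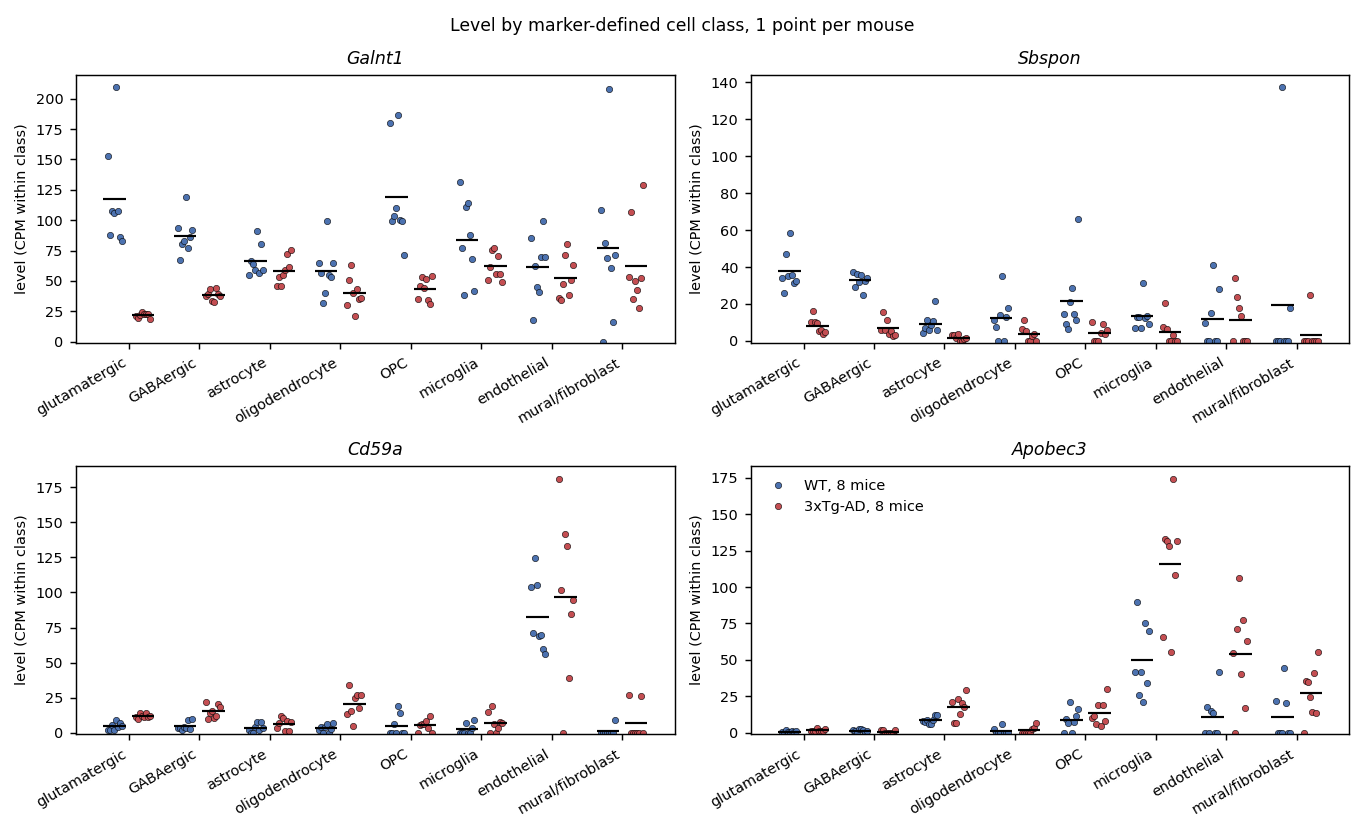
Level of Galnt1, Sbspon, Cd59a and Apobec3 (CPM within the class, vertical axis) in 8 marker-defined cell classes, with 1 point per mouse for 8 WT and 8 3xTg-AD mice and lines at the means. Galnt1 differs in glutamatergic nuclei (medians of 107 and 22.3) and overlaps in astrocytes, Cd59a is highest in endothelial nuclei and Apobec3 in microglia.

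Alcohol was also tested within classes, where 277 of 51911 gene and class pairs (0.534%) were called by edgeR. Of 35 pairs of a selected gene and a class that passed the filter, 6 of Gm17167 or Gm7324 had under 10 UMIs in 1 genotype and were set aside. Of the other 29, 0 were called by edgeR and 6 (20.7%) had an unadjusted p below 0.05, against 13.4% of all pairs. DESeq2 called 2 of the 29, against 1.17% of all pairs. The lowest adjusted p by edgeR was 0.0564, for Rbmxl1 in glutamatergic nuclei (0.54 on the log2 scale, SE 0.14). Sbspon in glutamatergic nuclei was at -1.21 (SE 0.26, adjusted p = 0.0866) in 3xTg-AD and 0.08 (SE 0.19, adjusted p = 0.860) in WT mice, and at -0.56 (SE 0.16, adjusted p = 0.0755) over both. DESeq2 called the values over both genotypes, 0.54 and -0.56, with adjusted p of 0.0252 and 0.0487.

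Genes next to the selected genes were examined because neighbors on a chromosome are inherited together. Within 1 Mb of the 9 genes with a position, 150 other genes were tested that were not selected and shared fewer than 20 of the 60-base stretches with a selected gene. Of these, 3 were higher and 3 lower in 3xTg-AD mice (4.0%, edgeR, adjusted p of at most 0.05), against 3.28% of all genes, and the median size of their log2 difference was 0.10 against 0.11 over all genes. That pooled share lay near the background. By selected gene it was 11.5% of 26 neighbors around Gm17167, 8.70% of 23 around Ccl27a, 5.88% of 17 around Cd59a and 4.35% of 46 around Apobec3. Each of these shares rests on few calls, and the stretches around Gm17167 and Ccl27a overlap. The largest difference was in Gm26881, an antisense transcript on chromosome 4 at 839 kb from Gm17167, with 3.59 CPM in WT and 0.49 CPM in 3xTg-AD mice (-2.89, SE 0.48, adjusted p = 0.00223). On the same chromosome Il11ra1, a receptor subunit for interleukin 11 that adjoins Ccl27a, was higher by 0.34 (adjusted p = 0.00782), and Fam219a was lower (-0.34, adjusted p = 0.0166).

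The other called neighbors were Cstf3, a cleavage factor of mRNA 3′ ends near Cd59a (0.23, adjusted p = 0.0455), and a pair near Apobec3. Of that pair, the calcium channel gene Cacna1i was lower (-0.38, adjusted p = 0.0385) and the growth factor gene Pdgfb higher (0.31, adjusted p = 0.0227). Around Galnt1, Sap130, Sbspon, Rbmxl1 and Gm7324, 0 of 15, 16, 11, 11 and 1 tested neighbors were called by edgeR. The largest values there were 0.32 for Mocos, -0.29 for the zinc transporter gene Slc39a6 and -0.25 for Fhod3 near Galnt1. Near Sap130 they were -0.61 for A830052D11Rik, -0.41 for Lims2 and 0.31 for Gm26658. Near Sbspon they were -0.60 for Gm7568, 0.26 for the telomere-binding gene Terf1 and 0.20 for the retinol dehydrogenase gene Rdh10. Near Rbmxl1, 0610038B21Rik was at -0.51, the endothelin receptor gene Ednra at -0.30 and Gm4890 at 0.27, and the only tested neighbor of Gm7324, AC160336.1, which shares 19 such stretches with it, was at -0.03. Near Cd59a, Lmo2 was at -0.37, Gm13883 at -0.27 and Cd59b, the paralog of Cd59a, at -0.26. Near Apobec3, Gm41361 was at -1.002, the meiotic recombinase gene Dmc1 at 0.63 and Tomm22 at 0.47, with none of these called by edgeR. Of genes that share sequence with Ccl27a, Gm20878 was at -1.66 (SE 0.20) and Gm13306 at -0.88 (SE 0.26).

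**Figure D5:**
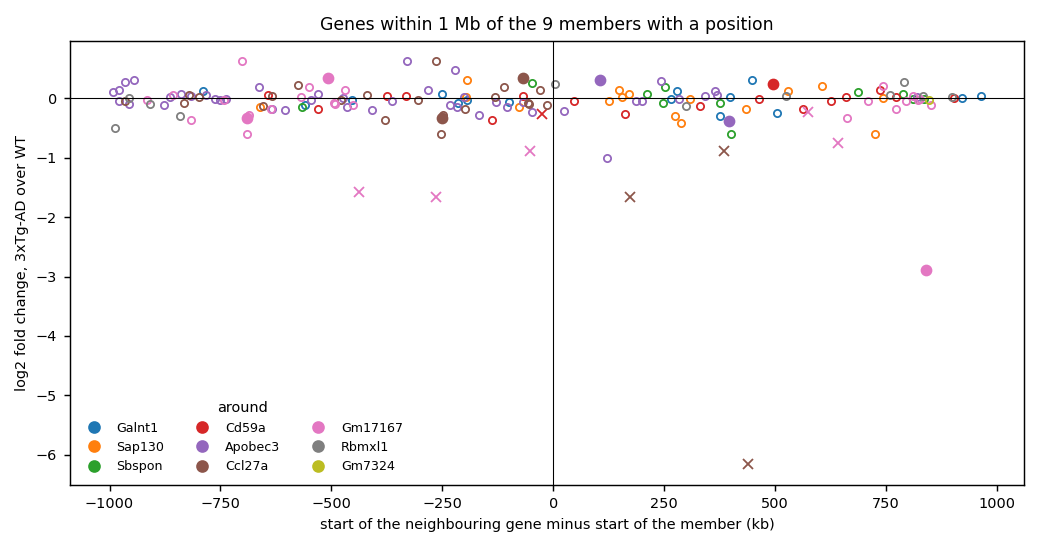
Log2 fold change of 3xTg-AD over WT (vertical axis) of genes within 1 Mb of a selected gene, against the distance between their starts (kb, horizontal axis), colored by the selected gene. Filled points passed the test, open points did not, and crosses are selected genes or genes that share at least 20 of the 60-base stretches with one. Gm3892, listed at 0 in all 3xTg-AD mice, is not drawn. Most points lie near 0, and Gm26881 at -2.89 is the filled point farthest from it.

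Selected genes on the same chromosome were compared across mice within a genotype, after subtraction of the treatment mean, in 6 correlations. Gm17167 and 4933409K07Rik varied together over the 8 WT mice, with Pearson r = 0.85 (exact permutation p = 0.00196, adjusted p = 0.0118) and Spearman rho = 0.83 (exact permutation p = 0.0154, adjusted p = 0.0923). Without mice 6 and 17, those farthest from the median, r was 0.69. With mouse 26, 17 or 18 left out, r was 0.87, 0.78 or 0.84 and was no longer called (exact permutation adjusted p = 0.0595, 0.194 and 0.0714). Ccl27a, 0.44 Mb from Gm17167, had r = 0.46 with it in WT mice (exact permutation adjusted p = 0.532), which turned to -0.13 in glutamatergic nuclei. With 4933409K07Rik, Ccl27a had r = 0.53 in WT mice (exact permutation adjusted p = 0.529) and Spearman rho = 0.71. That r turned to -0.33 in glutamatergic nuclei. In 3xTg-AD mice Gm17167 had 5 to 18 UMIs per mouse, so its correlation there is not read, though it counts among the 6. Galnt1 and Sap130 had r = -0.05 in WT mice (exact permutation adjusted p = 0.910), 0.78 without mice 6 and 26, and -0.29 in 3xTg-AD mice (0.738).

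Over the residuals of all 16 mice, the genes most like each selected gene were listed as a description, 5 for each and 50 in all, and r depends on library effects that all genes share. By GENCODE positions, and the RefSeq chromosome for 4933409K07Rik, 4 of the 50 lay on the chromosome of their selected gene. All 4 were on chromosome 4, with Gm3892 and 4933409K07Rik in the list of Gm17167 and Gm3892 and Gm20878 in that of 4933409K07Rik. For Apobec3 the leading genes were AI480526 (0.88), the interferon-induced Ifi27l2a (0.87) and the myosin Myo1f (0.87), followed by Cebpg (0.83) and Erap1 (0.82). The list of Sap130 included 5730405O15Rik, Inpp4a, Pofut1 and Slit1 (0.93 to 0.88). Galnt1 was most like Gm29017, Ptprb, Mink1, Plec and Gm42556 (0.82 to 0.80), and Sbspon like 4933421D24Rik, Pdzk1, Slc24a1, 9130221H12Rik and Ccdc183 (0.87 to 0.84). Ccl27a was most like Fam163b, Gm26902, Trbc2, Lst1 and Cln6 (0.87 to 0.83), and Cd59a like Trpv2, Slc35b4, Dysf, Zfp641 and Smc1b (0.85 to 0.78). The lists of Rbmxl1 (Ifnar2, Tmem202, Hsd17b10 and Eif3m among them, 0.83 to 0.78) and of Gm7324 (Ogfr, Arhgap1, Fdps, Vps28 and Cryzl2, 0.88 to 0.85) shared no gene. For Gm17167 they were Trmt5 (0.88), Plekhh3 (0.85), Gm3892 (0.85), 4933409K07Rik (0.84) and Gm30025 (0.82). For 4933409K07Rik they were Fign (0.90), Gm3892 (0.88), Gm20878 (0.88), Gm42067 (0.88) and Plekhh3 (0.86), although 8 of its 16 values were listed at 0.

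Functional relatives of the selected genes were counted in 6 lists, against the 3.28% of all genes called between genotypes. Of 16 tested GalNAc transferases of the Galnt family, 0 were called between genotypes by edgeR, with a median log2 difference of 0.03 against -0.01 for all genes. The largest in size was Galnt11, at 0.52 (adjusted p = 0.269). Of 17 subunits and partners of the Sin3 complex, of 8 complement regulators, of 6 RNA-binding relatives and of 3 cytidine deaminases, 0 were called by edgeR, with medians of 0.02, 0.08, 0.04 and 0.14. Among these Rbmx, the X-linked parent of Rbmxl1, was at 43.9 and 45.5 CPM in WT and 3xTg-AD mice (0.06, adjusted p = 0.865), Cd59b at -0.26 (adjusted p = 0.723) and Apobec1 at 0.68 (adjusted p = 0.118). The sixth list held 3 tested genes, of which Il11ra1 is no chemokine relative but the neighbor of Ccl27a given above. Ccl28, the other ligand of Ccr10, was lower (-1.31, SE 0.30, adjusted p = 0.0198) at 3.15 and 1.26 CPM in WT and 3xTg-AD mice. Ccr10 itself was at 0.64 and 0.90 CPM (adjusted p = 0.870). Alcohol calls numbered 0 in all 6 lists by edgeR, against 3.3% of all genes, a share at which lists of 3 to 17 tested genes hold few or no calls. The alcohol medians of the lists ran from -0.09 to 0.03, with 0.01 over all genes.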

How the data were processed

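The authors aligned the 10x Genomics 3′ reads (v3.1 chemistry) to mm10 with Cell Ranger 6.1.1 and deposited the UMI counts of 114512 nuclei and 19999 genes as 1 sparse table. These are whole-number counts, not normalized. Whether intronic reads were counted is not given in the sources used here. All nuclei were used, and doublets were not called. The 10 genes and all gene lists were chosen with earlier results of these data known.

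Counts were summed per mouse, and per mouse and class, and fitted with edgeR 4.0.16 in R 4.3.3 (TMM, filterByExpr, robust quasi-likelihood test, 1 mean for each of the 4 groups). Benjamini-Hochberg adjustment ran over all genes of a contrast, with calls at 0.05. The fit was tested on simulated data. Levels given as TMM CPM were computed from the counts. A class needed at least 3 UMIs from at least 2 of its markers, and a mouse at least 10 nuclei of it. Classes other than the glutamatergic one needed marker UMIs at least 4 times those expected from all nuclei. Their ratio also had to be at least 2 times that of the next such class. Remaining nuclei were glutamatergic at a ratio of at least 1 if no other class with at least 2 marker UMIs reached 4. Of 32127 glutamatergic nuclei, 8940 lay within 25% of that looser cut. Permutation tests were run with SciPy 1.17.1 on log2 values with a pseudocount of 1 CPM, in Python 3.11.15 (NumPy 2.4.6, pandas 2.3.3).

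Between 4955 and 9096 nuclei and between 9622031 and 17544364 UMIs per mouse (216742276 in all) set the precision, and SDs between mice hold counting error and differences between mice. Barcodes found in more than 1 library numbered 1694, of which 0 had identical counts. The named genes were all 10 members, their called neighbors within 1 Mb with up to 3 of the largest differences, the most alike genes by r, and list members that passed the test. Alternatives were DESeq2 1.42.0, another scaling, no count filter, filtered nuclei, a stricter class rule, another pseudocount, left-out mice and, chosen after seeing the data, summed copies, genes near 0 in a genotype tested in the other, and class pairs with at least 10 UMIs in both genotypes. A few genes and an allele that these rules would name are not reported here.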

Additional observations from a re-analysis of the deposited data

Results flagged for a closer look

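In 3 of the 38 sets of 4 mice that were examined, the highest mouse stood apart from the other mice of its group by Dixon's criterion, and chance alone flags about 1 in 20 groups. Galnt1 was at 184 CPM in WT alcohol mouse 6, with the next mouse at 98.1 CPM and the lowest at 91.1 CPM. This mouse was also highest in glutamatergic nuclei (210 CPM), in astrocytes (91.4 CPM) and in OPCs (186 CPM). Sbspon was at 48.1 CPM in the same mouse, against 30.9 to 32.8 CPM in the rest of its group. Cd59a was at 11.96 CPM in 3xTg-AD alcohol mouse 34, against 10.8 to 10.96 CPM in the others, a small gap next to the difference from all WT mice. WT alcohol mouse 6 held the lowest Gm17167 level of the WT mice too, at 1.33 CPM.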

How the results depend on the processing

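No paired analysis was possible because the mice of different groups share no label numbers. The genotype differences kept their direction in all alternatives but 1. With copies summed, an alternative chosen after seeing the data, Gm7324 turned from higher to -0.11 without and -0.25 with alcohol. The count of selected genes called for alcohol over both genotypes, 1 by edgeR, was 2 by DESeq2, 0 with copies summed and 0 to 2 with a mouse left out. In 3xTg-AD mice it was 2 by DESeq2 and 0 to 1 with a mouse left out. Among class pairs it was 2 by DESeq2 and 0 to 1 with a mouse left out. The share of all genes called by DESeq2 is given above for class pairs only, so its other counts have no background here. Genes near 0 in a genotype were also tested in the other, a choice made after seeing the data. Calls were then 6 rather than 5 for neurons and 4 as before between neuronal classes. These class comparisons were not run over all genes, so their counts of calls have no background share. By the stricter class rule Sap130 in neurons turned to -0.16 (exact adjusted p = 0.0621) and Sbspon between neuronal classes to -0.092 (exact adjusted p = 0.457). The 1 called correlation became 0 without WT control mouse 26 or WT alcohol mouse 17 or 18, so the count was 0 to 1. In glutamatergic nuclei r turned to -0.13 (WT) and -0.079 (3xTg-AD) for Ccl27a with Gm17167, -0.33 for Ccl27a with 4933409K07Rik, and 0.17 for Galnt1 with Sap130 in WT mice. With a mouse left out, r of Galnt1 with Sap130 ranged from -0.43 to 0.62 in WT and from -0.70 to 0.52 in 3xTg-AD mice, and that of Ccl27a with Gm17167 in 3xTg-AD mice from -0.30 to 0.40. The cause of these changes was not tested. Genes with few UMIs, such as Apobec3 at 16 to 124 per mouse, limit what a small change would show.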
